A study of Mus musculus with 8 samples.

Results

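The genes examined here encode proteins of the LINC complex, the bridge of SUN and KASH domain proteins across the nuclear envelope, and of the apparatus that ties meiotic telomeres to it. The 10 members were taken by name from the 21058 genes of the count table: *Sun1*, *Sun2*, *Sun3*, *Sun5* and *Spag4*, which encode SUN domain proteins of the inner nuclear membrane, *Syne1* and *Syne2*, which encode the KASH domain proteins nesprin-1 and nesprin-2, and *Terf1*, *Majin* and *Spdya*, which encode telomere-binding or telomere-attachment proteins. The rule that takes them uses names and no measured value, although earlier results of these data were known when it was written. All 10 were among the 17643 genes with enough counts to test.

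In meiotic prophase, telomeres are held at the nuclear envelope by the TERB1-TERB2-MAJIN complex and are linked through SUN1 and the meiotic KASH protein KASH5 to cytoplasmic dynein, which moves chromosomes while homologs pair. Speedy A, the product of *Spdya*, binds and activates CDK2 at telomeres. After meiosis, spermatids build other bridges: SUN3 and SPAG4 (also called SUN4) join the nuclear envelope to the manchette, the microtubule sleeve around the lengthening nucleus, and SUN5 lies at the junction of sperm head and tail.

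RNA from 4 *Arid1a* WT and 4 *Arid1a* cKO samples of Sta-Put purified pachytene spermatocytes was compared, to ask how transcription during pachynema depends on ARID1A, a subunit of the BAF chromatin remodeling complex. Males of the *Arid1a* cKO group had 2 floxed alleles (*Arid1a* fl/fl) and 1 copy of the *Stra8-Cre* transgene (Tg/0), which is active from spermatogonia onward. The *Arid1a* WT males were *Arid1a* fl/fl or *Arid1a* fl/+ without Cre, and the floxed line was kept on a CD1 background. Testes of several adult males were combined for a Sta-Put purification, a sedimentation of dissociated testis cells at unit gravity. Its fractions were enriched by sedimentation rather than sorted by a marker. Per the methods, those made up mostly of pachytene spermatocytes under the light microscope were pooled. The study describes Cre excision as inefficient, with some *Arid1a* cKO spermatocytes still making ARID1A. The labels call the samples biological replicates without saying which animals each came from, so p-values measure the spread between these samples.

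Estimated counts summed to between 18308688 and 22044507 in *Arid1a* WT libraries and to between 15850961 and 21626772 in *Arid1a* cKO libraries, and no member had fewer than 101 counts in any library. Abundance is given as CPM, a gene's counts relative to the TMM-adjusted total of its library. *Arid1a* itself was 113 ± 13.8 CPM in *Arid1a* WT and 79.7 ± 2.89 in *Arid1a* cKO (SD, n = 4 each), a log2 fold change of -0.51 (SE 0.07, edgeR with Benjamini-Hochberg, adjusted p = 2.31e-05). That value counts reads of the whole gene and not of the floxed exons alone. Genes were called at an adjusted p of 0.05 or less, which took in 74.0% of the genes tested, with 36.5% higher and 37.5% lower in *Arid1a* cKO. Against this background a call by itself says little about a gene.

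Markers of other cell types also differed between the genotypes. All 17 markers of round and elongating spermatids, among them *Prm1*, *Tnp1* and *Acrv1*, were higher in *Arid1a* cKO, with a median log2 fold change of 2.16 (range 1.03 to 2.39), and their summed level was between 2439 and 2696 CPM in *Arid1a* WT libraries and between 10368 and 10633 in *Arid1a* cKO libraries. Of 12 pachytene markers, 10 were lower and 2 (*Sycp1* and *Ccna1*) were higher, with a median of -1.25 and summed levels of 9072 to 10223 CPM against 6180 to 6634. The call of *Ccna1* was lost without TMM, with length offsets and on log2 TPM. Summed over each set, pachytene and spermatid marker transcripts were thus present in both genotypes. Single pachytene markers differed widely, with log2 fold changes from -3.88 to 0.83. All 10 Sertoli markers were lower (median -1.55, summed level 569 to 639 CPM against 175 to 183), as were 6 of 7 Leydig markers (median -2.94, 58.7 to 62.8 CPM against 8.34 to 9.0). Marker sets of other cells had more genes higher than lower: 6 of 8 for peritubular and endothelial cells (median 0.80, 18.8 to 23.7 CPM against 34.8 to 40.9), 5 of 7 for macrophages and blood (median 1.35, 5.12 to 6.19 CPM against 11.4 to 14.0), 9 of 12 for spermatogonia and 6 of 10 for leptotene and zygotene spermatocytes. In limma fits on log2 TPM, 5 spermatogonia markers were higher with either pseudocount, and with a pseudocount of 0.1 the peritubular and endothelial count was 3. The summed level of the spermatogonia set was nevertheless lower in *Arid1a* cKO (205 to 209 CPM against 180 to 191), as was that of the leptotene and zygotene set (575 to 654 CPM against 394 to 410). The part that these cell types play in the values of the members was not tested. In such bulk samples fewer cells of a type and less RNA per cell cannot be told apart.

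The SUN genes of spermatids were the members that rose most. *Sun5*, on chromosome 2 (153856188 to 153871365, coordinates from RefSeq on GRCm38.p6), was at 33.4, 31.3, 36.3 and 34.8 CPM in *Arid1a* WT replicates 1 to 4 and at 164, 153, 155 and 152 CPM in *Arid1a* cKO replicates 1 to 4. Every *Arid1a* cKO library lay far above every *Arid1a* WT library. The rise was 4.60-fold, a log2 fold change of 2.20 (SE 0.06, edgeR with Benjamini-Hochberg, adjusted p = 1.04e-13).

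*Spag4*, also on chromosome 2 (156065188 to 156069501), was at 49.0, 47.4, 52.7 and 46.0 CPM in the *Arid1a* WT libraries and at 226, 217, 218 and 211 CPM in the *Arid1a* cKO libraries. The groups did not overlap, and replicates of each genotype were close together. The log2 fold change was 2.16 (SE 0.05, edgeR with Benjamini-Hochberg, adjusted p = 8.66e-14). *Sun3*, on chromosome 11 (9016043 to 9048991), was at 35.2, 32.5, 31.2 and 33.9 CPM in *Arid1a* WT and at 98.1, 91.9, 93.1 and 93.4 CPM in *Arid1a* cKO. Again the groups were apart, with a smaller rise of 2.83-fold and a log2 fold change of 1.503 (SE 0.05, edgeR with Benjamini-Hochberg, adjusted p = 2.55e-12). The log2 fold changes of *Sun5* and *Spag4* lay beside the median of the 17 spermatid markers (2.16), and that of *Sun3* lay below it but within their range.

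The promoters of these 3 genes are shown because the genes rose in the same samples. Each run covers 250 bases before to 50 bases after a RefSeq start on GRCm38.p6, read 5′ to 3′ on the strand of the gene, and capitals mark matches to the motifs searched on both strands: the cAMP response element (CRE, TGACGTCA), its shorter core TGACG, which also lies within the CRE, the MYB core CAGTTG and the RFX letters GTTGCCA. The *Spag4* window is chr2:156064963-156065262 (plus strand), the *Sun5* window is chr2:153871035-153871334 (minus strand), and the *Sun3* window, at the start of the transcript found in these cells (below), is chr11:9039542-9039841 (minus strand).
Spag4: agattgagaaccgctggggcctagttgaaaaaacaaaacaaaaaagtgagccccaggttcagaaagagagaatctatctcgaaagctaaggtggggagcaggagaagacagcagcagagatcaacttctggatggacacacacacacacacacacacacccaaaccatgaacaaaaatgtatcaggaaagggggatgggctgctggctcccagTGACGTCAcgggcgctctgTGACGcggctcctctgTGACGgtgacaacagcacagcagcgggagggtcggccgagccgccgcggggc
Sun5: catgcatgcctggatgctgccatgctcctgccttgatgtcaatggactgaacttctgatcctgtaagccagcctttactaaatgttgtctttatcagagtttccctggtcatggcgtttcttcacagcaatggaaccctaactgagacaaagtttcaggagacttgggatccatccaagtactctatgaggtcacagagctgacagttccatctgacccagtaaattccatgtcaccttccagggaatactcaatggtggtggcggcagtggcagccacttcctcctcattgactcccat
Sun3: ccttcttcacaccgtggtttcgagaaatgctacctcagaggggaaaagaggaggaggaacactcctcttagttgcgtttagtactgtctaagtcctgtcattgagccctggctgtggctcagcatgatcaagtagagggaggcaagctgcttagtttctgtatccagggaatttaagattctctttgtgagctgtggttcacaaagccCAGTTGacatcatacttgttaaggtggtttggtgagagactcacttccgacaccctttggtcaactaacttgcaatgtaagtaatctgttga

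The windows have little in common by these measures. *Spag4* holds 1 CRE and 4 matches to the shorter core, with 2 of those inside the CRE, which reads the same on both strands. *Sun3* holds 1 MYB core, and *Sun5* holds none of the 4 motifs. Over all 32851 promoters of the same length, 1.79% held a CRE, 20.8% the shorter core, 13.7% the MYB core and 4.38% the RFX letters. The *Spag4* window has 14 CpG dinucleotides, *Sun3* has 4 and *Sun5* has 2, against a median of 7 over all promoters. A match of letters is not evidence of binding, and its absence says only that these letters are not in the window.

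The SUN genes of meiotic and somatic nuclei were lower in *Arid1a* cKO. *Sun1*, on chromosome 5 (139200564 to 139249839), encodes the SUN protein that meiotic telomeres need for attachment. It was at 222, 213, 217 and 222 CPM in *Arid1a* WT and at 147, 135, 136 and 129 CPM in *Arid1a* cKO. All *Arid1a* cKO libraries were lower, with a log2 fold change of -0.67 (SE 0.05, edgeR with Benjamini-Hochberg, adjusted p = 1.19e-08). With allowance for the mean length of its transcripts in each library the difference was smaller. It was -0.24 on log2(TPM + 1) and still called (limma with Benjamini-Hochberg, adjusted p = 0.00311), where TPM is a level that Salmon corrects for transcript length. With length offsets on the counts it was -0.14 and was not called (edgeR with Benjamini-Hochberg, adjusted p = 0.0575).

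*Sun2*, on chromosome 15 (79724068 to 79742536), encodes the other widely expressed SUN protein. Its level was 29.8, 30.0, 33.7 and 30.3 CPM in *Arid1a* WT and 9.85, 10.3, 11.2 and 10.9 CPM in *Arid1a* cKO. The groups were far apart, a fall to 0.342 of the *Arid1a* WT level and a log2 fold change of -1.55 (SE 0.07, edgeR with Benjamini-Hochberg, adjusted p = 4.77e-11). Unlike *Sun1*, *Sun2* kept a log2 fold change between -1.65 and -1.42 under every alternative fit of all 8 libraries, length offsets included.

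**Figure D1:**
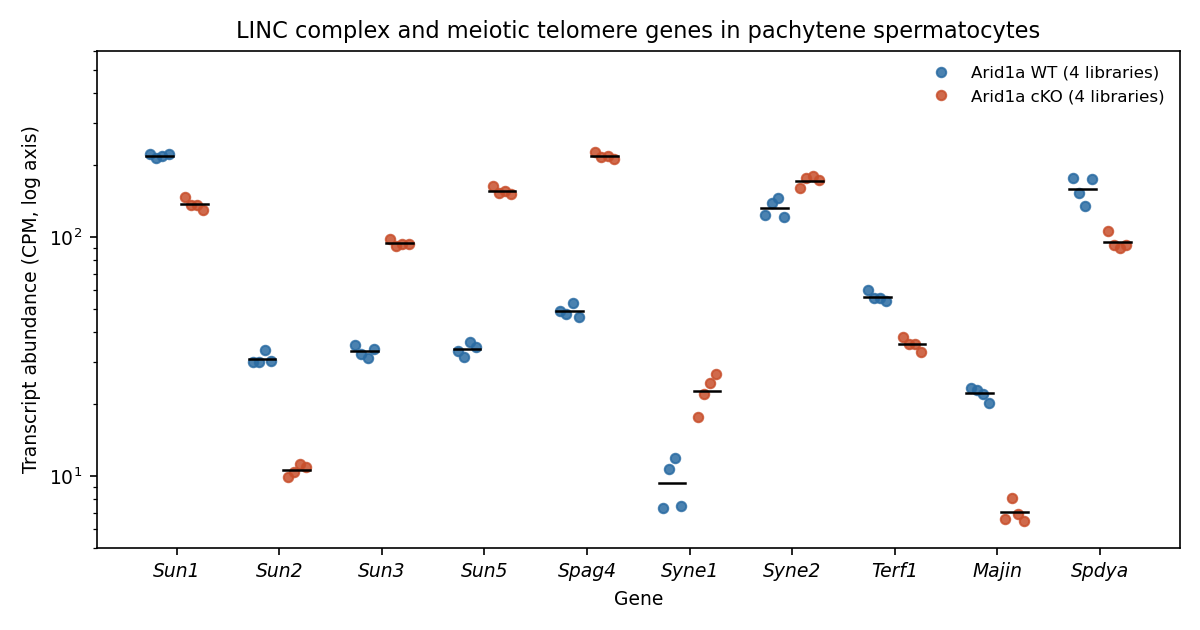
Abundance of the 10 LINC complex and meiotic telomere genes in CPM on a log axis, with 1 point per library and the mean of 4 as a black bar. The *Arid1a* WT and *Arid1a* cKO points do not overlap for any of the 10 genes, and *Sun5* and *Spag4* are furthest apart upward and *Majin* and *Sun2* downward.

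Both nesprin genes were higher in *Arid1a* cKO. *Syne1*, on chromosome 10 (5020192 to 5550692), was at 7.37, 10.7, 11.9 and 7.46 CPM in *Arid1a* WT and at 17.7, 21.9, 24.5 and 26.6 CPM in *Arid1a* cKO. It varied most among replicates of the members, yet its groups did not overlap. The log2 fold change was 1.28 (SE 0.15, edgeR with Benjamini-Hochberg, adjusted p = 3.23e-06). With length offsets it was 0.94, and on log2(TPM + 0.1) and log2(TPM + 1) it was 0.79 and 0.45, all 3 called. The pseudocount lowers the last value most, since the gene lay near 1 TPM.

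*Syne2*, on chromosome 12 (75818318 to 76110928), was at 123, 138, 146 and 121 CPM in *Arid1a* WT and at 160, 177, 179 and 172 CPM in *Arid1a* cKO. The lowest *Arid1a* cKO library stood above the highest *Arid1a* WT library by less than the range within either group. Its log2 fold change of 0.38 (SE 0.06, edgeR with Benjamini-Hochberg, adjusted p = 8.72e-05) was the smallest among the members. On log2(TPM + 1) it was 0.13 and was not called (limma with Benjamini-Hochberg, adjusted p = 0.0559).

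The 3 telomere genes were lower in *Arid1a* cKO. *Majin*, on chromosome 19 (6184345 to 6224230), encodes the membrane anchor of the telomere attachment complex. It was at 23.4, 22.9, 21.9 and 20.2 CPM in *Arid1a* WT and at 6.62, 8.11, 6.94 and 6.49 CPM in *Arid1a* cKO. With every *Arid1a* cKO library well below every *Arid1a* WT library, the fall was the steepest of the members, with a log2 fold change of -1.65 (SE 0.08, edgeR with Benjamini-Hochberg, adjusted p = 2.24e-10).

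*Terf1*, on chromosome 1 (15805546 to 15844052), encodes TRF1, a shelterin protein that binds telomeric DNA. Its level was 59.9, 55.6, 55.3 and 54.0 CPM in *Arid1a* WT and 38.2, 35.5, 35.5 and 32.8 CPM in *Arid1a* cKO. The groups did not overlap, and the log2 fold change was -0.66 (SE 0.06, edgeR with Benjamini-Hochberg, adjusted p = 8.39e-08). *Spdya*, on chromosome 17 (71526895 to 71589533), was at 176, 152, 134 and 174 CPM in *Arid1a* WT and at 106, 92.8, 89.8 and 92.0 CPM in *Arid1a* cKO. The *Arid1a* WT replicates spread widely, but the lowest still exceeded the highest *Arid1a* cKO replicate. The log2 fold change was -0.74 (SE 0.08, edgeR with Benjamini-Hochberg, adjusted p = 1.32e-06).

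Of the 10 members, 5 were higher and 5 were lower, and the genotypes did not overlap in CPM for any of them. In TPM they overlapped for *Syne1* and *Syne2*, where *Syne2* reached 27.6 in *Arid1a* WT and was as low as 27.3 in *Arid1a* cKO. Over all genes tested, 68.9% also had no overlap in CPM and 74.0% were called, so these counts are near what most genes showed. The median log2 fold change of the members was -0.14, against -0.02 over all genes tested. All 3 spermatid SUN genes were higher and all 3 telomere genes were lower, a description of 6 genes that was not tested as a pattern.

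Some reads of these members may belong to other genes. *Spdya* shares 10.8% of its 31-base words with transcripts of the same strand, including those of the overlapping *Mettl4-ps1*, and 17.1% with the opposite strand, where it overlaps *Trmt61b*. *Majin* shares 7.87% with *Gm6610*, and *Terf1* shares 5.27% with several genes. *Sun3* shares 7.41% with the opposite strand, where *Gm11992* lies. *Sun1* shares 4.16% and *Sun2* 2.14% with the opposite strand, where *4930520M14Rik* and *Gm16575* overlap them. *Spag4*, *Syne1* and *Syne2* share less. Whether the counting used the strand is not given in the sources used here, so the values of these genes are less certain than those of *Sun5*, which shares none.

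TPM values allow levels to be set side by side between genes. In *Arid1a* WT, *Spdya* (148 ± 14.5 TPM, SD, n = 4) and *Sun1* (121 ± 2.74) led, and were followed by *Sun5* (65.6 ± 4.55), *Spag4* (64.1 ± 4.99), *Terf1* (56.4 ± 2.62) and *Sun3* (47.1 ± 0.985). *Syne2* (25.8 ± 1.24), *Majin* (25.3 ± 1.79), *Sun2* (12.9 ± 1.32) and *Syne1* (0.874 ± 0.300) came last. The ranges of *Sun5* and *Spag4* overlapped, as did those of *Syne2* and *Majin*, while other neighbors in the order were apart.

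In *Arid1a* cKO the order began with *Sun5* (272 ± 6.62 TPM, SD, n = 4) and *Spag4* (260 ± 7.19), whose ranges overlapped. *Sun3* (122 ± 2.01), *Sun1* (103 ± 7.96), *Spdya* (81.9 ± 5.50) and *Terf1* (33.6 ± 1.78) followed. *Syne2* (28.4 ± 1.39), *Majin* (7.41 ± 0.716), *Sun2* (4.17 ± 0.151) and *Syne1* (1.55 ± 0.302) closed the order, with no overlap between neighbors after the first pair. The listed genes held between 78.1% and 81.1% of all TPM in *Arid1a* WT libraries and between 88.1% and 88.6% in *Arid1a* cKO libraries, so TPM levels of the genotypes do not rest on equal totals. The order within a library is not touched by this.

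Within a library, the make-up of the SUN transcripts can be read as each gene's share of the summed TPM of the 5 SUN genes. *Sun1* held 38.9% ± 0.739 (SD, n = 4) in *Arid1a* WT and 13.5% ± 0.694 in *Arid1a* cKO, and *Sun2* held 4.13% ± 0.300 and 0.548% ± 0.00437. *Sun3*, *Sun5* and *Spag4* together held 56.9% ± 0.703 in *Arid1a* WT and 86.0% ± 0.696 in *Arid1a* cKO. *Sun3* alone stayed near its share, with 15.2% ± 0.805 and 16.0% ± 0.371, while *Sun5* went from 21.1% ± 0.758 to 35.8% ± 0.370. The summed level of the spermatid markers moved in the same direction (above), and its part in these shares was not tested.

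**Figure D2:**
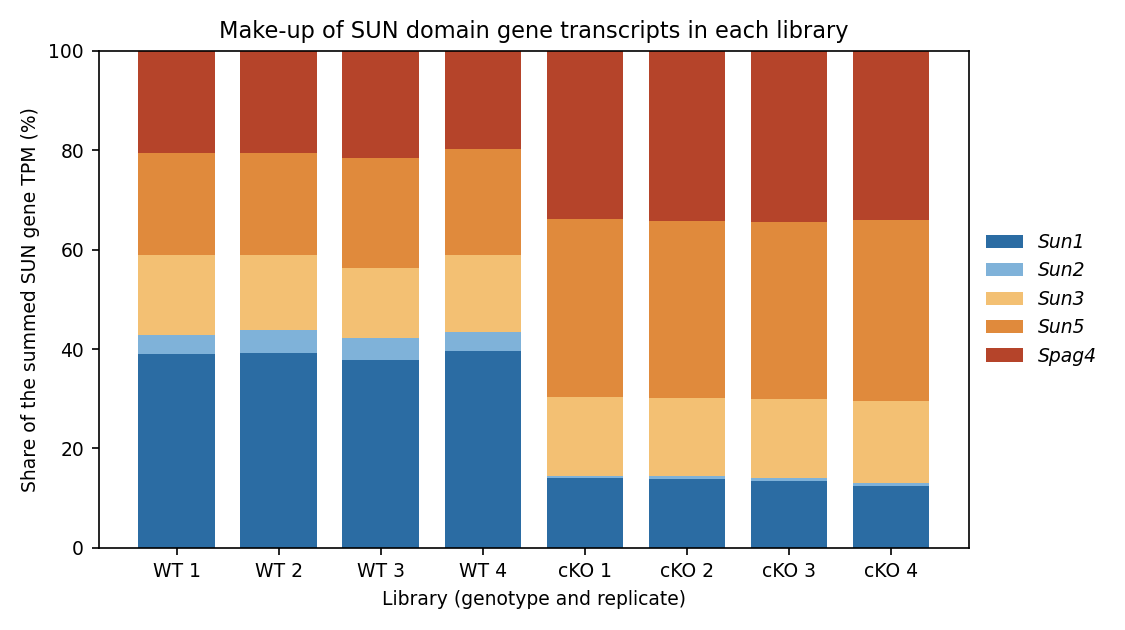
Share of each SUN domain gene in the summed TPM of the 5 genes, in percent, with 1 stacked bar per library. *Sun1* makes up 37.9% to 39.5% of each *Arid1a* WT bar and 12.5% to 14.0% of each *Arid1a* cKO bar, and *Spag4* and *Sun5* fill most of the difference.

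Counts and TPM together give the mean length of the transcripts that Salmon assigned to a gene in each library, weighted by their abundance. The lengths of 1104 genes with a single annotated transcript were used to put this on a scale of bases. Of 13958 genes tested for a difference between genotypes, 3.90% had a longer and 12.1% a shorter mean transcript length in *Arid1a* cKO, and 2 of the 10 members were called, 1 in each direction.

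The first was *Sun1*. Its mean transcript length was 2764, 2735, 2775 and 2780 bases in *Arid1a* WT and 1878, 1843, 1898 and 2013 bases in *Arid1a* cKO. The *Arid1a* WT libraries lay within a narrow range and every *Arid1a* cKO library was far shorter. The log2 difference in effective length, the length less the span a fragment takes up, was -0.57 (SE 0.03, limma with Benjamini-Hochberg, adjusted p = 3.75e-05), near the lower end of the span that holds 95% of all genes (-0.58 to 0.29). By TPM, which allows for this, *Sun1* was 118, 122, 124 and 119 in *Arid1a* WT and 110, 106, 103 and 91.5 in *Arid1a* cKO. The *Arid1a* cKO libraries were still the lower ones, by a log2 ratio of -0.24 in place of the -0.67 in counts.

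*Sun1* has 20 annotated transcripts in GENCODE M21, 14 of them coding and between 387 and 4134 bases long, and which of them changed cannot be read from gene totals. RefSeq gives the gene a first start at chr5:139200637, near which 10 of the GENCODE transcripts begin, and a second at chr5:139215158, near which none does. The windows at both RefSeq starts are shown because the transcripts of *Sun1* differed in length between genotypes. They are chr5:139200387-139200686 and chr5:139214908-139215207 on the plus strand of GRCm38.p6 (RefSeq), with the same capitals as above. The second window may not be a promoter. The bases just before its start end in a run of pyrimidines and then cag, as introns do at a splice site.
Sun1 first start: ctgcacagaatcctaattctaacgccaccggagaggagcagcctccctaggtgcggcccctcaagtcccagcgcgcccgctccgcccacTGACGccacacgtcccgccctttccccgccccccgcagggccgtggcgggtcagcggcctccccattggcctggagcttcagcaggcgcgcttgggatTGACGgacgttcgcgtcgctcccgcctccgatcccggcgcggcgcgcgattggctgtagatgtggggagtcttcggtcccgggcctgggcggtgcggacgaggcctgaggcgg
Sun1 second start: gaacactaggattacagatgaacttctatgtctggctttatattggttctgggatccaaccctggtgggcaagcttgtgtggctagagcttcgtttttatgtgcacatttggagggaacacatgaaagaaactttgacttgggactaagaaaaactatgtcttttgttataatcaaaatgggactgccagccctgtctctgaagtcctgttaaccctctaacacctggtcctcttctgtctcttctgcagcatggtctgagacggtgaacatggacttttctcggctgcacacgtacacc

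The windows differ in make-up, and the second may be the edge of an exon rather than a promoter. The first has 36 CpG dinucleotides, 71.3% G or C and 2 matches to the shorter CRE core. At the second there are 4 CpG dinucleotides, 45.3% G or C and no match to any of the 4 motifs. Whether transcription begins at the second start was not tested, and the use of each start was not measured here.

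The other was *Syne1*, whose mean transcript length was 17661, 15488, 14704 and 15946 bases in *Arid1a* WT and 20224, 18512, 19293 and 19141 bases in *Arid1a* cKO. The *Arid1a* cKO libraries held the longer transcripts, without overlap. The log2 difference was 0.29 (SE 0.06, limma with Benjamini-Hochberg, adjusted p = 0.0157). Annotated coding transcripts of *Syne1* range from 2726 to 27908 bases, the longest encoding the giant form of nesprin-1. Read on the length-corrected scale, *Syne1* was at 0.584, 1.03, 1.22 and 0.665 TPM in *Arid1a* WT and at 1.13, 1.56, 1.68 and 1.83 TPM in *Arid1a* cKO. On that scale 1 *Arid1a* WT library lay above the lowest *Arid1a* cKO library, so the groups overlapped.

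**Figure D3:**
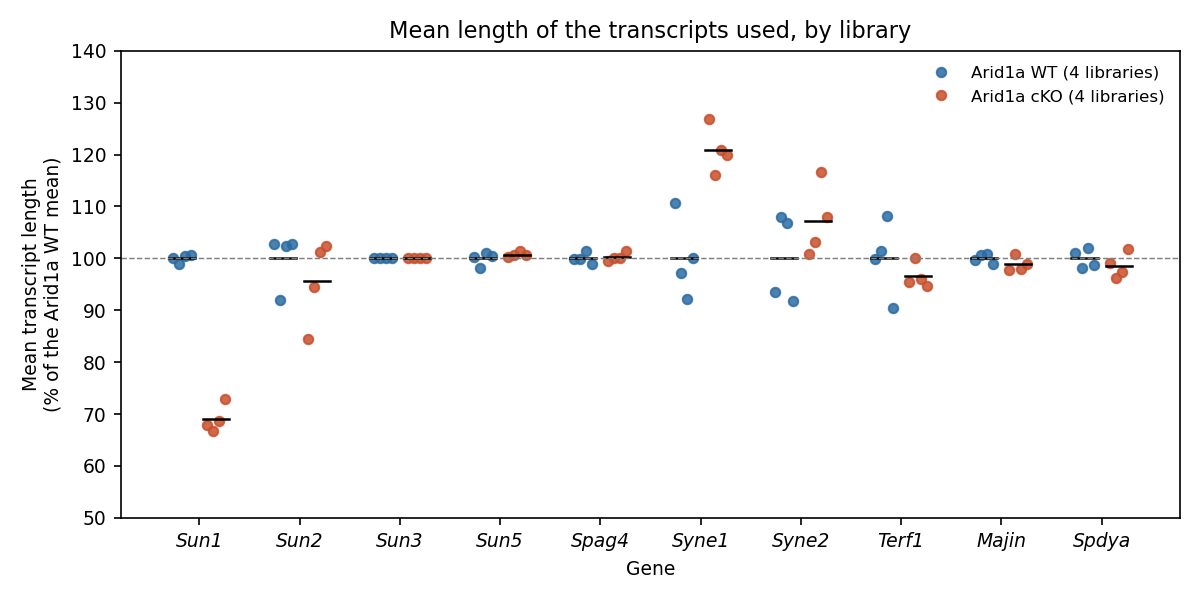
Mean transcript length of each member in each library, in percent of the *Arid1a* WT mean, with the mean of 4 libraries as a black bar. *Sun1* in *Arid1a* cKO falls well below the dashed line at 100% and *Syne1* lies above it, while the genotypes overlap for the other 8 genes.

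For the other 8 members the groups overlapped and no difference was called. *Sun3* was at 1176 bases in every library. It has only 2 annotated transcripts, of 1176 and 1205 bases, which begin at different starts. The longer one took no more than 0.717% of *Sun3* transcripts in any library by Salmon's assignment, so the rise of *Sun3* lay in the shorter transcript, which begins at the start whose promoter is printed above. *Majin* also has 2, of 1239 and 1562 bases. The longer form made up 55.2%, 59.0%, 59.3% and 51.0% of *Majin* in *Arid1a* WT and 46.1%, 59.8%, 46.9% and 51.7% in *Arid1a* cKO. These shares overlapped, so both forms were lower in *Arid1a* cKO. *Sun5* stayed between 892 and 921 bases and *Spag4* between 1244 and 1276 bases over the 8 libraries. The only coding transcript of *Sun5* has 1157 bases, and its other annotated transcripts, of 462 and 519 bases, are not coding. Part of the *Sun5* TPM in both genotypes was thus assigned to non-coding forms.

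Partners of the members in meiotic telomere attachment were mostly lower. Of 10 listed genes, 8 were lower, 0 were higher and 2 (*Tinf2* and *Pot1a*) were not called, with a median log2 fold change of -0.58. *Cdk2*, the kinase that Speedy A activates, was 154 ± 4.57 CPM in *Arid1a* WT and 26.6 ± 1.31 in *Arid1a* cKO (SD, n = 4), a log2 fold change of -2.53 (SE 0.05, edgeR with Benjamini-Hochberg, adjusted p = 4.78e-14). *Terb1* and *Terb2*, which form the attachment complex with *Majin*, had log2 fold changes of -1.12 (SE 0.06) and -1.38 (SE 0.11). The shelterin gene *Terf2* fell by 1.43 on the log2 scale (SE 0.07), more than *Terf1*. *Kash5*, the outer-membrane partner of SUN1, was 152 ± 5.26 CPM and 123 ± 2.0 CPM, a log2 fold change of -0.31 (SE 0.04, edgeR with Benjamini-Hochberg, adjusted p = 2.06e-05). Pachytene markers were lower beside these genes (median -1.25), and their part in this was not tested.

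Genes of the sperm head-to-tail junction, where SUN5 resides, rose with it. Of 9, 8 were higher and 1 (*Cntln*, at -1.15) was lower, with a median log2 fold change of 1.89. *Spatc1l* (2.56, SE 0.05), *Pmfbp1* (2.39, SE 0.06) and *Spata20* (2.24, SE 0.05) rose most, close to *Sun5* at 2.20. All 17 spermatid markers were higher beside them.

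Other nuclear envelope genes went both ways. Of 13 lamina and inner membrane genes, 9 were lower, 3 were higher and 1 (*Lmna*) was not called, with a median of -0.36. Among them *Lmnb2*, which encodes lamin B2 and the spermatid form lamin B3, rose by 2.14 (SE 0.05) and *Emd*, the X-linked emerin gene, by 1.93 (SE 0.08) on the log2 scale, while *Lemd2*, for a LEM domain protein of the inner membrane, fell by 1.82 (SE 0.05). Of the 4 other KASH or SUN domain genes, *Syne3* (nesprin-3) was higher at 0.30 (SE 0.10, edgeR with Benjamini-Hochberg, adjusted p = 0.016), a call lost without TMM (0.20, edgeR adjusted p = 0.138), *Suco* was lower at -0.17 (SE 0.04), and *Syne4* and *Irag2* were not called. *Syne4*, at -1.23 (edgeR with Benjamini-Hochberg, adjusted p = 0.0785), was called lower with length offsets, on both TPM scales and without *Arid1a* WT replicate 4 (-1.55, adjusted p = 0.0115). That gene lay near the floor, at a mean of 0.398 CPM in *Arid1a* WT and 0.160 CPM in *Arid1a* cKO, so these calls rest on few reads.

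The dynein and dynactin genes that move meiotic chromosomes gave no common direction. Of 13, 6 were higher, 5 were lower and 2 were not called, with a median log2 fold change of -0.01. *Dctn3*, for a dynactin subunit, and *Dynll1*, for a dynein light chain, were higher by 0.85 (SE 0.06) and 0.83 (SE 0.05), and the light intermediate chain gene *Dync1li1* was lower at -0.91 (SE 0.08). The heavy chain gene *Dync1h1* had a log2 fold change of -0.14 and was not called (edgeR with Benjamini-Hochberg, adjusted p = 0.0667).

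**Figure D4:**
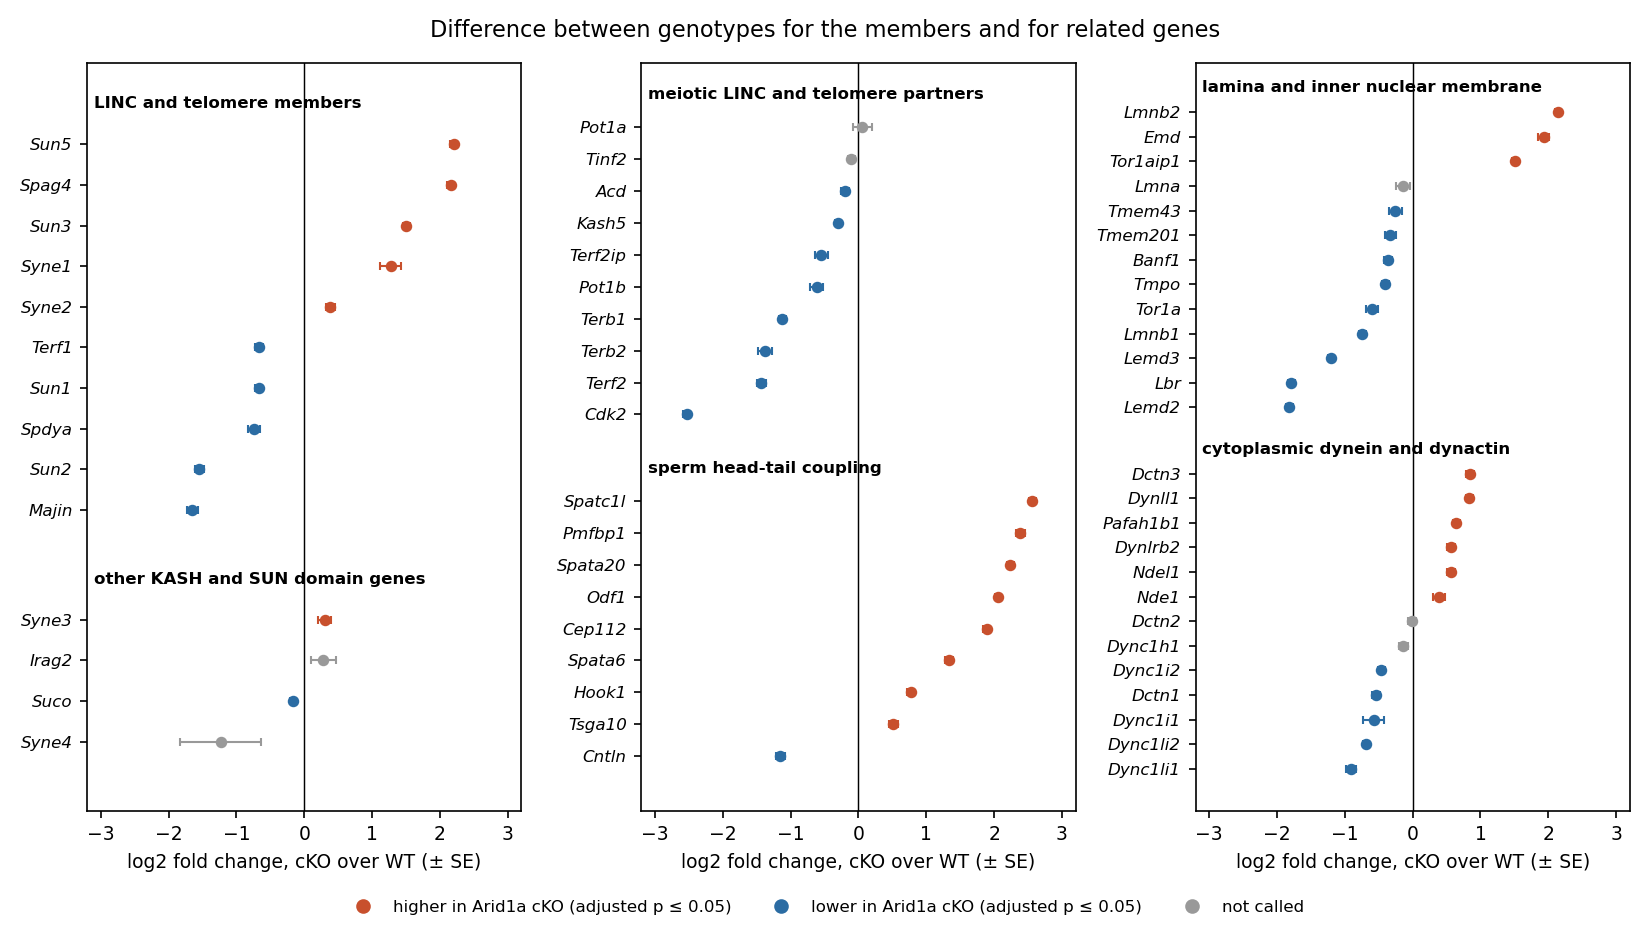
Log2 fold change between genotypes with its SE for the 10 members and the genes of 5 related lists, each in its own block and colored by the edgeR call. The telomere partners lie at or left of 0, except *Pot1a* just right of it, the head-to-tail genes lie right of 0 apart from *Cntln*, and the dynein block straddles 0.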

How the data were processed

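RNA-seq of 4 *Arid1a* WT and 4 *Arid1a* cKO samples was analysed, grouped by the genotype in the labels, and 0 columns of other samples were left out. Per the methods, Salmon and tximport with mm10 gene models gave the 2 tables the authors deposited, of estimated counts and of TPM. A DESeq2 table of the authors' own log2 fold changes and p-values was not used.

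Estimated counts were rounded. Genes with at least 10 summed counts were tested with edgeR 4.0.16 (TMM, quasi-likelihood, genotype only) in R 4.3.3, with Benjamini-Hochberg adjustment over all genes. Mean transcript length came from the ratio of count to TPM, for genes with at least 10 counts in every library, and its effective value was tested on the log2 scale with limma 3.58.1. Gene records and promoters are from RefSeq GRCm38.p6, and transcript lengths and 31-base words from GENCODE M21. The tables gave no promoter for *Terf1* or *Majin*. Libraries held 15850961 to 22044507 counts. No replicate pair agreed within sampling noise (chi-square per degree of freedom of 1.71 or more).

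The alternatives were DESeq2 1.42.0, other scalings and filters, length offsets, an adjusted p of 0.01, limma on log2 TPM (pseudocounts 1 and 0.1), a replicate block, exact permutation of lengths and each library left out. The members and lists were chosen with earlier results of these data known. Genes named were the members, *Arid1a*, 5 partners and, from each other list, the up to 3 called genes with the largest change and an average log2 CPM of 1 or more. *Tinf2*, *Pot1a*, *Cntln*, *Lmna*, *Syne4*, *Irag2*, *Dync1h1* and the markers were named after their values were seen.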

Additional observations from a re-analysis of the deposited data

Results flagged for a closer look

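In groups of 4 libraries, a value was picked out where its gap to the nearest other library, divided by the range of the group, exceeded Dixon's 95% critical value for 4 samples. Of 74 groups examined, 3 did so, and chance at 1 in 20 gives 3.7. *Sun2* was at 33.7 CPM in *Arid1a* WT replicate 3, against 29.8 to 30.3 CPM in the other *Arid1a* WT libraries (gap ratio 0.892). The mean transcript length of *Sun2* was 3340 bases in *Arid1a* WT replicate 2, against 3723 to 3736 bases in the others (gap ratio 0.967). *Suco* was at 433 CPM in *Arid1a* cKO replicate 1, against 413 to 416 CPM in the others (gap ratio 0.873). Each of these genes kept its call or lack of one when any single library was left out.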

How the results depend on the processing

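With any 1 library left out, 5 members were higher and 5 lower, among 6153 to 6517 higher and 6379 to 6645 lower genes, and length calls numbered 400 to 598 longer and 1430 to 1650 shorter. The log2 fold change of *Sun1* then ranged from -0.71 to -0.65, that of *Syne1* from 1.18 to 1.41 and that of *Syne2* from 0.35 to 0.43. Two-sided exact permutation gave p = 0.0286 for the lengths of *Sun1* and *Syne1*, the smallest that 4 against 4 allows. Length offsets lost the call of *Sun1* (-0.14, edgeR with Benjamini-Hochberg, adjusted p = 0.0575), leaving 4 members lower, while limma on log2(TPM + 1) and log2(TPM + 0.1) kept it called (-0.24 in both, adjusted p = 0.00311 and 0.00315) with 5 lower. Those limma fits lost the call of *Syne2* (0.13 and 0.14), leaving 4 higher, and length offsets kept it (0.24). Length differences near 0 changed sign with 1 library left out: *Sun3* between -0.000237 and 0.00176, and *Spag4* between -0.00112 and 0.0125. Over all alternatives, 482 of 486 log2 fold changes kept their direction and call, and 478 of 494 list and marker counts stayed within 1.5 times. The counts that moved were spermatogonia higher (9 to 5), peritubular and endothelial higher (6 to 3) and lower (1 to 0), pachytene higher (2 to 1), and the other KASH and SUN genes higher (1 to 0, without TMM or at an adjusted p of 0.01) and lower (1 to 2). Library size without TMM put the median of all genes at -0.12, against -0.02 with TMM. Same-numbered samples share only a number in the labels, and their deviations correlated at 0.162, 0.0125, 0.0852 and -0.137. With the number as a replicate block, 6429 genes were higher and 6671 lower, the members stayed at 5 and 5, and genes with a longer mean transcript length fell from 545 to 303 (1255 were shorter). The cause was not tested. Among the members, the lowest counts were those of *Majin* (101 in *Arid1a* cKO replicate 4) and *Syne1* (149 in *Arid1a* WT replicate 1). How far depth limits each gene was not tested.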
